A study of Mus musculus with 5 samples.

Results

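The mitochondrial ribosomal protein genes were examined for histone acetylation at their promoters in memory CD8+ T cells. The set comprised every protein-coding gene of the GENCODE mouse annotation (GRCm38) whose symbol begins with Mrpl or Mrps and a digit, which gave 78 of 21911 protein-coding genes. Of these, 49 belong by name to the large subunit (Mrpl) and 29 to the small subunit (Mrps). Each gene was scored in 5 lists of ChIPseq peaks, one per library, as called where a peak reached to within 3000 bp of one of its transcription start sites (TSS).

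The libraries came from 2 wild-type (WT) and 3 TPdh-/- samples, the latter labelled PDH_Mutant. TPdh-/- mice carry floxed Pdha1 alleles (tm1ptl) and a CD4-Cre transgene, which expresses the recombinase in T cells, so that T cells lose the E1 alpha subunit of the pyruvate dehydrogenase complex. In both groups OT-I CD8+ T cells, whose T cell receptor recognizes a peptide of ovalbumin, were activated with that peptide and then cultured with IL-15, which gives memory cells. Adult male and female mice were used in the study, and neither the labels nor the methods give the sex or number of mice behind each library. Chromatin was precipitated with an antibody against acetylated histones, for which the sample labels name lysine K18. The paper states that its measurements came from discrete samples, and it gives more ChIPseq samples per condition than the libraries examined here. No source says that the replicates came from separate mice, so the spread between them may be technical.

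The mitochondrial ribosome (mitoribosome) translates the few mRNAs encoded by mitochondrial DNA, whose products are subunits of the respiratory chain and ATP synthase. Its RNAs come from mitochondrial DNA, but all of its proteins are encoded in the nucleus, made in the cytosol and imported. Some of these proteins descend from bacterial ribosomal proteins and others are found only in mitochondria. Histone acetylation marks open chromatin at active promoters, and its donor, acetyl-CoA, is produced from pyruvate by the pyruvate dehydrogenase complex.

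Upstream sequence of 6 of these genes is shown to set promoters that had a peak in every library beside promoters that had none. The sequences are RefSeq promoter sequences of GRCm38.p6, on the strand of the gene and 5′ to 3′, cut to the bases before the TSS that lie in no annotated exon. Capitals mark matches on either strand to the motifs searched in all promoters, which here are the core of the NRF1 motif CGCANGCG and the CCAAT box. Matches outside the printed stretches are not shown. The longer window searched below also held the ETS motif CCGGAAG for Mrps23 and the SP motif GGGCGG for Mrpl46 and Mrpl49. For Mrpl46 it held TATAAA as well. NRF1 is a known regulator of nuclear genes for mitochondrial proteins, and NF-Y binds the CCAAT box. The first group, Mrpl9, Mrps23 and the pair Mrpl46 and Mrps11, had a peak in all 5 libraries. The stretch given for Mrpl46 is the gap between the RefSeq start of Mrpl46 and the start of Mrps11, which are transcribed away from each other.
Mrpl9, chr3:94443168-94443317, + strand: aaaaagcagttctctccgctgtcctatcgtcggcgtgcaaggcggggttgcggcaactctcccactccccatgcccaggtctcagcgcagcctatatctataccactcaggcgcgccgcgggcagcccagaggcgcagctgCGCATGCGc
Mrps23, chr11:88204238-88204387, + strand: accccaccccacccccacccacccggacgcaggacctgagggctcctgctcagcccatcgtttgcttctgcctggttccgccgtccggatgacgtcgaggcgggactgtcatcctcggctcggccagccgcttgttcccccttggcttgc
Mrpl46, chr7:78783090-78783118, - strand: gcccctcgccggcccgcgttgcctcatgg

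The second group, Mrpl12, Mrpl28 and Mrpl49, had a promoter peak in no library.
Mrpl12, chr11:120484463-120484612, + strand: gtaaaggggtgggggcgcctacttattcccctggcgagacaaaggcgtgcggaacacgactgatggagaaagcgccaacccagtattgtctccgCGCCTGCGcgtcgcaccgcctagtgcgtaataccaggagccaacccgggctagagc
Mrpl28, chr17:26123350-26123499, + strand: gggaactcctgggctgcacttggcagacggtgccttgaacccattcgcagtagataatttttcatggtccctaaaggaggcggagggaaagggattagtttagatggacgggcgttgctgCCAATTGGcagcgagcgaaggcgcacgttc
Mrpl49, chr19:6057786-6057843, - strand: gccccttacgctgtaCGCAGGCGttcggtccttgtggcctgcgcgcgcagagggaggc

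An NRF1 core thus stood at -27 from the RefSeq start of Mrpl9, which had a peak in all 5 libraries, and also at -80 from that of Mrpl12 and at -73 from that of Mrpl49, which had none. The capitals of Mrpl28 are a pair of CCAAT boxes on opposite strands that overlap.

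The peak lists differed in length. They held 15962 and 8859 peaks in WT replicates 1 and 2, and 4920, 5419 and 9418 peaks in TPdh-/- replicates 1, 2 and 3. No read numbers are given in the lists, so depth is unknown, and the counts of genes below were not adjusted for list length except where lists of equal length are named. T cell identity genes had promoter peaks in all libraries, with 11 of 11 in WT replicate 1 and between 4 and 8 of 11 in the others. Cd8a itself had a peak in WT replicate 1 alone, and Cd8b1, Lck, Zap70 and Lat had one in all 5. Of markers of other cells, Cd4, of helper T cells, had a peak in both WT libraries and in no TPdh-/- library. The other markers of that list are not reported in full here, so a part of other cells in any library was not tested.

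Mitoribosomal promoters carried an acetylation peak more often than promoters at large in every library, and they did so most in WT replicate 1. A promoter peak was called for 64 of the 78 genes (82.1%) in WT replicate 1, where the share of all coding genes was 42.1%. The count was 28 (35.9%, against 24.8% of coding genes) in WT replicate 2. In TPdh-/- replicates 1, 2 and 3 it was 21 (26.9%, against 15.3%), 24 (30.8%, against 16.5%) and 32 (41.0%, against 27.9%). The ratio of the shares ranged from 1.45 in WT replicate 2 to 1.95 in WT replicate 1, and the ratios of the 3 TPdh-/- libraries, 1.76, 1.86 and 1.47, lay between those of the WT pair.

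The proteins of the cytosolic ribosome, which translates nuclear mRNAs, had promoter peaks more often than those of the mitoribosome in all 5 libraries. Their share was 96.2% and 73.4% in WT and 43.0%, 40.5% and 73.4% in TPdh-/-, for 79 genes. Subunits of the respiratory chain and ATP synthase, 86 nuclear genes many of whose products assemble with proteins made by the mitoribosome, lay close to the mitoribosomal genes, with 82.6% and 40.7% in WT and 22.1%, 22.1% and 50.0% in TPdh-/-. The mitoribosomal share was below that of the respiratory chain in both WT libraries and TPdh-/- replicate 3, by between 0.507 and 8.97 percentage points. It was above it by 4.83 and 8.68 points in TPdh-/- replicates 1 and 2, the libraries with the shortest lists.

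**Figure D1:**
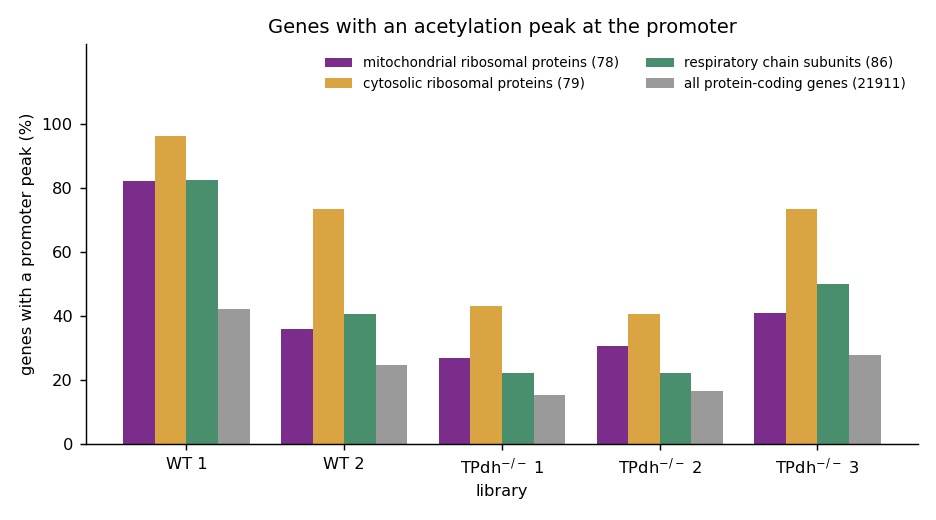
Share of genes with a peak within 3000 bp of a TSS (y axis, %) in each library (x axis) for 4 gene sets, one bar per set and library. Mitoribosomal genes lie above all coding genes in every library and below cytosolic ribosomal genes, and their 82.1% in WT replicate 1 stands far above their 26.9% to 41.0% in the other 4.

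The design asks whether loss of pyruvate dehydrogenase changes acetylation. The mean share of mitoribosomal genes with a promoter peak was 59.0% ± 32.6 in WT (SD, n = 2) against 32.9% ± 7.29 in TPdh-/- (SD, n = 3), a difference of 26.1 points. The groups overlapped, since TPdh-/- replicate 3 had more of these genes called than WT replicate 2, and the difference was 2.99 points without WT replicate 1 and 49.1 without WT replicate 2. Relative to the share of all coding genes, the difference was 12.5 points, and it was -1.87 points without WT replicate 1. With every list cut to its 4920 peaks of highest −log10 q, the shares were 44.9% and 30.8% in WT and 26.9%, 30.8% and 32.1% in TPdh-/-, and the differences shrank to 7.91 and 6.0 points. With 2 libraries against 3, an exact permutation test cannot give a two-sided p below 0.05, and no test was run on the shares.

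Presence across libraries was nested. All 37 mitoribosomal genes with a peak in any of the other 4 libraries also had one in WT replicate 1, as did 6771 of 7022 coding genes (96.4%). Of the 78 genes, 27 (34.6%) were called in WT replicate 1 alone, where 11.2% of coding genes were. A further 16 (20.5%, against 10.9% of coding genes) were called in all 5 libraries. No library called 14 of them (17.9%), compared with 56.7% of coding genes. Only Mrps21 (1.28%, against 2.2%) was called in both WT and in no TPdh-/- library. Of the 64 genes called in WT replicate 1, 36 (56.2%, against 68.1% of coding genes called there) were called in at least 1 TPdh-/- library. In the lists of equal length, 7 genes were called in WT replicate 1 alone, which was 8.97% of the set against 2.29% of coding genes. The nesting was then incomplete, since 3 genes (3.85%, against 4.79%) were called in a TPdh-/- library and in no WT library.

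**Figure D2:**
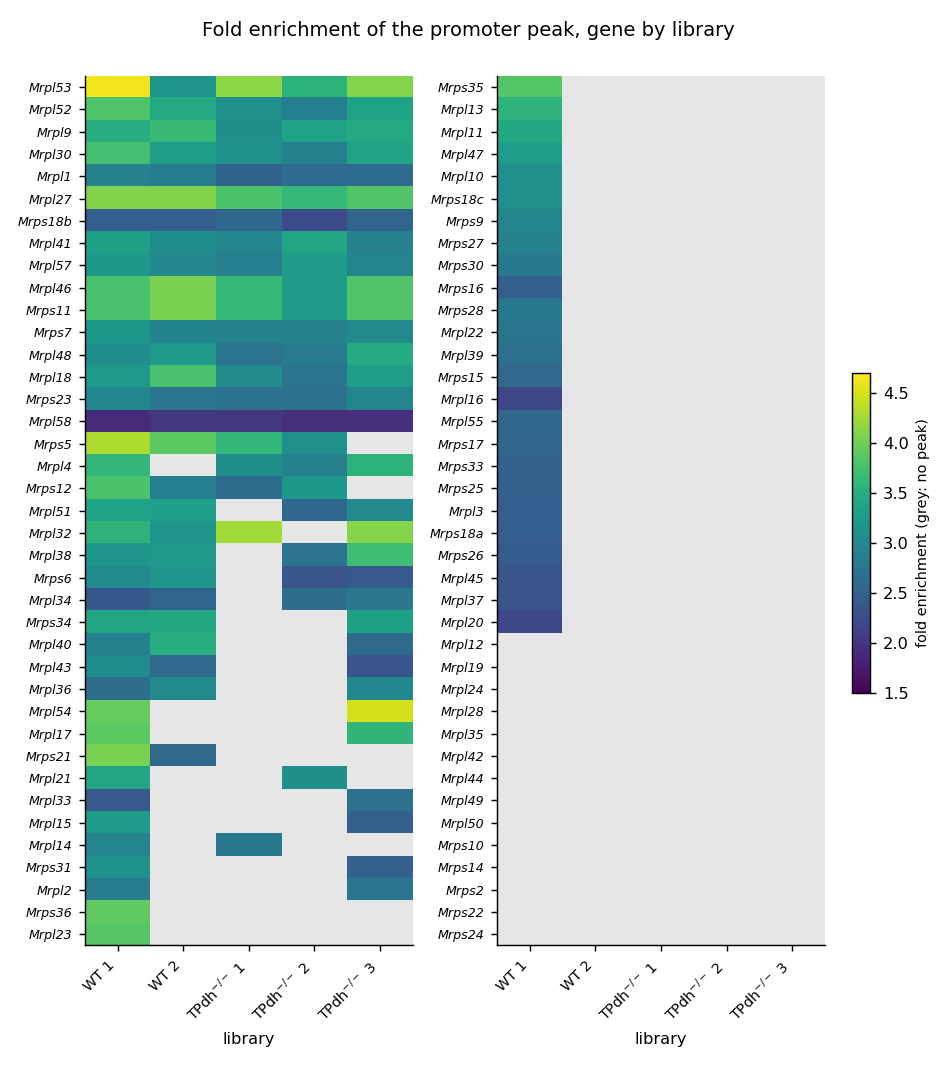
Fold enrichment of the promoter peak (color scale, ratio to the background estimated by the peak caller) for each of the 78 genes (rows, in both panels) in each library (columns), ordered by the number of libraries with a peak and then by rank in WT replicate 1. Grey cells have no peak. The 16 genes at the top have a value in all 5 libraries, 27 genes have one in WT replicate 1 alone and the last 14 have none.

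By subunit, 40 of 49 large-subunit genes (81.6%) and 24 of 29 small-subunit genes (82.8%) had a peak in WT replicate 1, against 42.1% of coding genes. In the other libraries the large subunit had the higher share in each, with 38.8% against 31.0% in WT replicate 2 and 30.6%, 34.7% and 51.0% against 20.7%, 24.1% and 24.1% in TPdh-/-. The small-subunit share was 56.9% ± 36.6 in WT (SD, n = 2) against 23.0% ± 1.99 in TPdh-/- (SD, n = 3). Here the groups did not overlap, although WT replicate 2 lay 9 genes to 7 above the nearest TPdh-/- libraries. All coding genes had means of 33.4% in WT and 19.9% in TPdh-/-, with groups that overlapped. In TPdh-/- replicate 3 the small-subunit share of 24.1% was below the coding share of 27.9%. In the other libraries it was above the coding share. By ancestry, 37 of 46 genes with bacterial homologues (80.4%) and 26 of 31 mitochondria-specific genes (83.9%) were called in WT replicate 1. The groups by ancestry had 8 genes each among those called in every library (17.4% and 25.8%, against 10.9% of coding genes).

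Genes of the large subunit chosen by role differed in the number of libraries with a peak. Mrpl2 and Mrpl3 belong to the protein neighborhood of the peptidyl transferase center. Mrpl2 had a peak of 2.84-fold in WT replicate 1 and one of 2.75-fold in TPdh-/- replicate 3, at different places, while Mrpl3 had one of 2.45-fold in WT replicate 1 alone. Of the stalk proteins, which recruit translation factors, Mrpl10 (3.10-fold) and Mrpl11 (3.43-fold) were called in WT replicate 1 alone. Mrpl12, the third of the stalk, had no peak. Mrpl22, Mrpl23 and Mrpl24 line the polypeptide exit tunnel. Mrpl23 had a peak of 3.87-fold in WT replicate 1 alone and Mrpl24 had none. The peak assigned to Mrpl22, 2.73-fold in WT replicate 1, was centered 3308 bp upstream and covered the start of Gemin5 instead. Mrpl45, which tethers the ribosome to the inner membrane, was called in WT replicate 1 alone at 2.36-fold. Mrpl44, which has a ribonuclease III-like fold, had no peak.

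On the small subunit, Mrps12, Mrps7 and Mrps9 sit at the decoding center or along the tRNA path. Mrps12 had a fold enrichment of 3.79 and 2.88 in WT and of 2.66 and 3.21 in TPdh-/- replicates 1 and 2, with no peak in replicate 3. Mrps7 was among the genes called everywhere, with 3.21 and 2.94 in WT and 2.93, 2.92 and 3.02 in TPdh-/-. Mrps9 was called in WT replicate 1 alone at 2.97-fold. The related genes Mrps18a, Mrps18b and Mrps18c encode alternative homologues of a bacterial protein, of which Mrps18a is carried by the large subunit. Mrps18b had a broad peak in all 5 libraries with fold values of 2.46, 2.45, 2.57, 2.22 and 2.54 in the order above. That peak covered the start of Ppp1r10 and not that of Mrps18b. Mrps18a (2.46-fold) and Mrps18c (3.11-fold) were called in WT replicate 1 alone, as was Mrps27, a pentatricopeptide repeat protein, at 2.92-fold. Over these 18 genes, which were chosen by role, 15 (83.3%, against 42.1% of coding genes) were called in WT replicate 1 and 4 in each of the other libraries. Those 4 genes are 22.2%, below the share of coding genes in WT replicate 2 (24.8%) and TPdh-/- replicate 3 (27.9%) and above it in TPdh-/- replicates 1 and 2 (15.3% and 16.5%).

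The genes without a promoter peak in any list were Mrpl12, Mrpl19, Mrpl24, Mrpl28, Mrpl35, Mrpl42, Mrpl44, Mrpl49, Mrpl50, Mrps2, Mrps10 and Mrps14, together with Mrps22 and Mrps24. They came from both subunits, with 9 of the large and 5 of the small. Mrpl12 on chromosome 11, from 120484613 to 120489065, is a stalk protein that also binds the mitochondrial RNA polymerase, and Mrps2 on chromosome 2, from 28468066 to 28471178, is a core protein of the small subunit. Absence from a list does not show that the promoter lacked acetylation, because depth is unknown and each list ends at a minimum −log10 q, of between 1.00 and 1.03.

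Several genes called in WT replicate 1 had a peak in some of the other libraries but not in all. Mrps21 on chromosome 3, from 95862634 to 95871519, had a fold enrichment of 4.06 in WT replicate 1, at the 89.7 percentile of that list by −log10 q, and of 2.61 at the 21.8 percentile in WT replicate 2. Its second peak had a −log10 q of 1.92 and was lost when a value of at least 2 was required, which left no mitoribosomal gene called in both WT libraries alone. Other settings placed other genes there. A −log10 q of at least 5 gave Mrpl40 and Mrps5 (2.56%, against 1.55% of coding genes). Lists of equal length gave Mrpl40 (1.28%, against 0.675%), and peaks of at least 1000 bp gave Mrpl32 (1.28%, against 1.9%). In the full lists these genes also had a peak in TPdh-/-. Mrpl4, whose product lines the exit tunnel, showed the opposite gap, with 3.62-fold in WT replicate 1, no peak in WT replicate 2, and 3.09, 2.90 and 3.57-fold in TPdh-/-. Mrpl17 had 3.89-fold in WT replicate 1 and 3.59-fold in TPdh-/- replicate 3, and Mrpl15 had 3.26-fold and 2.48-fold in the same libraries. Mrpl14 was called in WT replicate 1 (2.96-fold) and TPdh-/- replicate 1 (2.78-fold), and Mrpl21 in WT replicate 1 (3.41-fold) and TPdh-/- replicate 2 (3.09-fold). None of the 78 genes was called in a TPdh-/- library without a peak in WT, as were 0.758% of coding genes. With lists of equal length, 3 genes were (3.85%, against 4.79% of coding genes). With the nearest TSS, 4 were (5.13%, against 1.44%), among them Mrpl9 in all 3 TPdh-/- libraries. These genes, Mrpl9, Mrpl18, Mrpl27 and Mrps7, had promoter peaks in both WT libraries too. The midpoints of those WT peaks lay nearer to the start of a neighboring gene, to which this setting gave them.

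Presence in the other libraries followed rank in WT replicate 1. The median percentile in that list was 40.4 for the 27 genes called there alone, 70.5 for 9 genes called in 2 libraries, 70.0 for 4 called in 3, 86.3 for 8 called in 4 and 93.2 for 16 called in all 5. Coding genes at large ran from 40.4 to 88.9 over the same classes. All 17 mitoribosomal genes below the 50 percentile of the WT replicate 1 list were absent from the other 4 lists, whereas 54.9% of 2839 coding genes below it were. Of 30 genes above the 75 percentile, 23 (76.7%) were called in WT replicate 2, and 18, 20 and 23 (60.0%, 66.7% and 76.7%) in TPdh-/-. Coding genes above it were called in 84.8% and in 63.9%, 65.8% and 90.0%. The mitoribosomal share in WT replicate 2 thus equalled that of TPdh-/- replicate 3.

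Among genes called in WT replicate 1 alone, the strongest was Mrps36, at the 92.8 percentile with 3.92-fold enrichment. Its product is now assigned to the 2-oxoglutarate dehydrogenase complex of the tricarboxylic acid cycle rather than to the ribosome. Mrpl23, Mrps35 and Mrpl13 followed, at the 87.1, 86.2 and 85.8 percentile. The weakest was Mrpl20, at the 1.2 percentile with 2.19-fold enrichment. Mrps36, Mrps35, Mrpl13 and Mrpl20 were singled out after their values were seen.

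**Figure D3:**
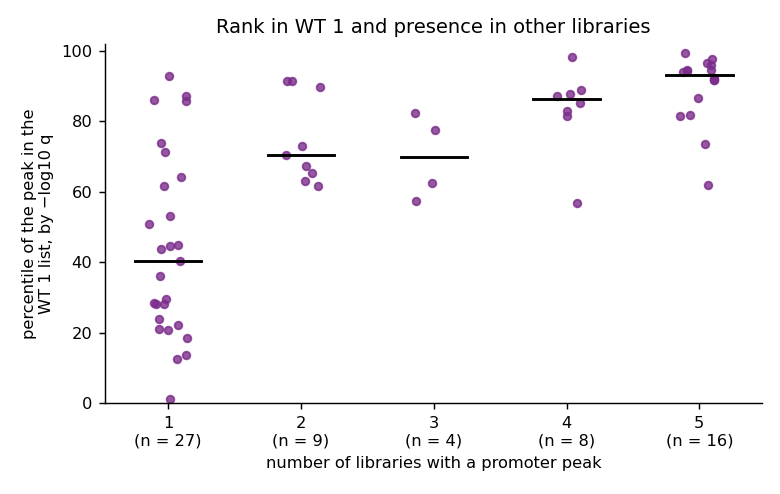
Percentile of each mitoribosomal promoter peak in the WT replicate 1 list by −log10 q (y axis) against the number of libraries in which the gene had a promoter peak (x axis). Points are genes, black lines are medians, and points are spread sideways for display. The median climbs from 40.4 for genes called in 1 library to 93.2 for genes called in 5, and the single-library class spans 1.2 to 92.8.

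Where a peak was called, its fold enrichment at mitoribosomal promoters was similar in all libraries. The median over the genes called in each list was 3.09 and 3.17 in WT and 3.05, 2.91 and 3.01 in TPdh-/-, compared with 2.79 and 2.82, and 2.85, 2.78 and 2.75, for coding genes. The WT values lay above all TPdh-/- values, by 0.134 between the group means of 3.13 ± 0.0575 (SD, n = 2) and 2.99 ± 0.0762 (SD, n = 3), but each median covers a different set of genes. Peaks at these promoters were narrower than those of coding genes in 5 of 5 libraries, with median widths of 1033 and 907 bp in WT and of 832, 820 and 925 bp in TPdh-/-, against 1186, 987, 844, 904 and 1025 bp.

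The 16 genes called in all 5 libraries allow the same genes to be compared. Their peaks overlapped at a common place in all libraries except for Mrpl48 and Mrpl58. For Mrpl48 the WT replicate 2 peak ran from 100590855 to 100591540, at another TSS of the gene. Its WT replicate 1 peak ran from 100607019 to 100608545. Both genes were kept in the values below. They were Mrpl1, Mrpl9, Mrpl18, Mrpl27, Mrpl30, Mrpl41, Mrpl46, Mrpl48, Mrpl52, Mrpl53, Mrpl57, Mrpl58, Mrps7, Mrps11, Mrps18b and Mrps23. Mrpl46 and Mrps11 share 1 peak, so that 15 distinct peaks stood behind them in each library. Their median log2 fold enrichment was 1.71 and 1.68 in WT and 1.59, 1.54 and 1.73 in TPdh-/-, a difference of 0.08, and TPdh-/- replicate 3 lay above both WT libraries. The difference was 0.04 after each library was centered on its median over coding genes. Over the same 16 genes it ranged from 0.04 without TPdh-/- replicate 2 to 0.13 without TPdh-/- replicate 3. Their median percentile was 93.2 and 84.6 in WT and 66.8, 68.5 and 89.8 in TPdh-/-. The median of all coding genes called in all 5 libraries was 88.9 and 79.2 in WT and 67.8, 70.8 and 81.5 in TPdh-/-. For the 16 genes the difference between group means of 13.9 points shrank to 2.59 with lists of equal length.

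Gene by gene, none of the 16 passed an adjusted p of 0.05 by limma on centered log2 fold enrichment over the 2384 coding genes called in all 5 libraries. In that test 0% of coding genes were called higher in WT and 0% lower. At an unadjusted p below 0.05 there were 0 of the 16 and 189 of the 2384. The smallest adjusted p of the 16 was 0.673, for Mrpl52. The WT estimate was the higher in 12 of the 16 genes, or 11 of 15 distinct peaks (73.3%), and in 1126 of the 2384 coding genes (47.2%). The 16 genes had a median difference of 0.06 on the log2 scale (quartiles 0.003 and 0.10), against -0.01 over all coding genes.

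Mrpl52, a mitochondria-specific protein of the large subunit, had fold values of 3.82 and 3.45 in WT and of 3.10, 2.88 and 3.36 in TPdh-/-. Mrpl1, of the stalk at the tRNA exit side, had 2.92 and 2.85 in WT and 2.53, 2.62 and 2.62 in TPdh-/-. Mrpl27, which reaches toward the peptidyl transferase center, had 4.10 and 4.09 in WT and 3.79, 3.63 and 3.83 in TPdh-/-. In these 3 genes both WT values lay above all TPdh-/- values after centering, as they did in 11% of coding genes. Their log2 differences were 0.19 ± 0.10, 0.12 ± 0.10 and 0.09 ± 0.10 (SE) by limma, with adjusted p of 0.673, 0.799 and 0.868. No mitoribosomal gene had both WT values below all TPdh-/- values, as 12.7% of coding genes did.

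The strongest of these promoters by mean percentile were those of Mrpl27, Mrpl53, Mrpl9 and the pair Mrpl46 and Mrps11. Mrpl53, a mitochondria-specific protein, varied most among libraries, from 4.64 in WT replicate 1 to 3.17 in WT replicate 2, with 4.15, 3.57 and 4.11 in TPdh-/- between them. Mrpl9 had 3.49 and 3.67 in WT and 3.09, 3.35 and 3.46 in TPdh-/-. The peak shared by Mrpl46 and Mrps11 had 3.78 and 4.06 in WT and 3.63, 3.26 and 3.83 in TPdh-/-, and it ran from 78782439 to 78783809 on chromosome 7 in WT replicate 1. The groups overlapped for Mrpl53 and for the shared peak, and for Mrpl9 they did so after centering. The weakest were Mrpl58, Mrps23 and Mrps7. Mrps23 had 2.99 and 2.75 in WT and 2.70, 2.70 and 2.95 in TPdh-/-. Mrpl58, a peptidyl-tRNA hydrolase that rescues stalled ribosomes, had the lowest values, between 1.90 and 2.02 in the 5 libraries. Its peaks lay inside or beyond the gene near starts of noncoding transcripts and not at one place in all libraries, and with the starts of protein-coding transcripts alone it had none.

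**Figure D4:**
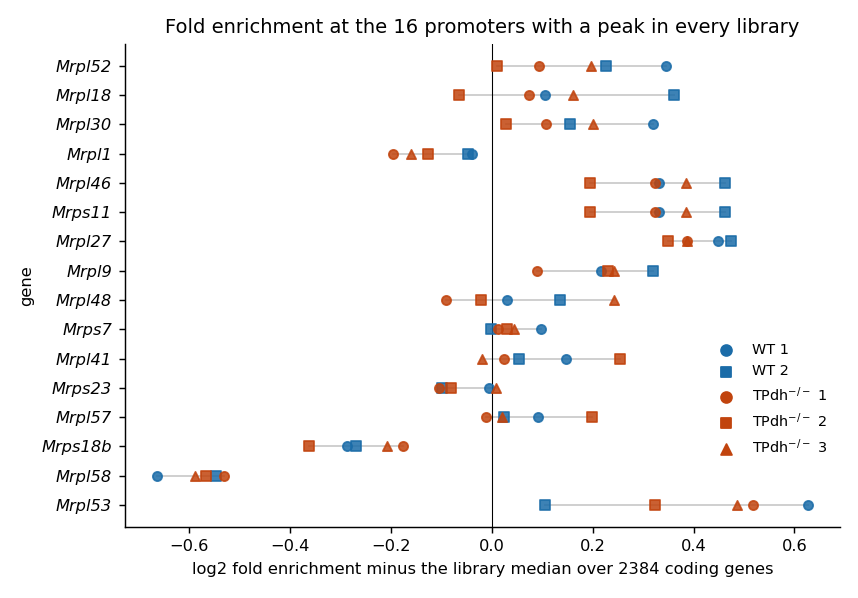
Log2 fold enrichment minus the library median over 2384 coding genes (x axis) for the 16 mitoribosomal genes with a promoter peak in all 5 libraries (y axis), one point per library. For Mrpl48 and Mrpl58 the points are not all from peaks at the same place. WT libraries are blue and TPdh-/- libraries are orange, with a symbol for each replicate and a grey line over the range. The genes are ordered by the difference between group means, and both blue points lie right of all orange points for Mrpl52, Mrpl1 and Mrpl27 only.

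Many mitoribosomal genes share a promoter region with a neighbor transcribed in the opposite direction. A divergent neighbor was a coding gene on the other strand with a TSS within 1000 bp, placed so that the pair runs apart. Pairs whose transcripts would overlap at their starts were not counted. Such a neighbor was found for 29 of the 78 genes (37.2%), compared with 11% of coding genes. The neighbors of several also serve mitochondria, among them Sars2 beside Mrps12, a seryl-tRNA synthetase of mitochondria, Twnk beside Mrpl43, the helicase of mitochondrial DNA, and Ndufs6 beside Mrpl36, a subunit of complex I. Divergent mitoribosomal promoters had a peak in 93.1% and 62.1% in WT and 48.3%, 48.3% and 62.1% in TPdh-/-. Those without such a neighbor had one in 75.5% and 20.4% in WT and 14.3%, 20.4% and 28.6% in TPdh-/-. Of the 16 genes called in all 5 libraries 10 were divergent, as were 600 of 2384 coding genes called in all 5. Of the 14 called in none 2 were, Mrpl49 beside Fau and Mrpl50 beside Zfp189, as were 438 of 12433 coding genes called in none.

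The same held among coding genes, for which divergent promoters had a peak in 80.9% and 51.0% in WT and 32.6%, 35.3% and 57.5% in TPdh-/-, and other promoters in 37.3% and 21.5% and in 13.1%, 14.2% and 24.3%. Among genes without a divergent neighbor, the mitoribosomal share was thus 20.4% against 21.5% in WT replicate 2, 14.3% against 13.1% in TPdh-/- replicate 1, and 28.6% against 24.3% in TPdh-/- replicate 3. The largest gap was that of WT replicate 1, at 75.5% against 37.3%, and TPdh-/- replicate 2 had 20.4% against 14.2%.

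**Figure D5:**
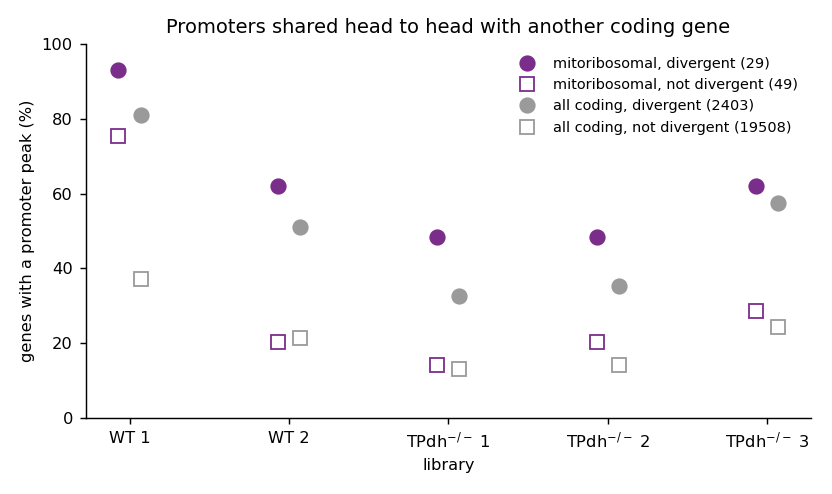
Share of genes with a promoter peak (y axis, %) in each library (x axis) for mitoribosomal genes (purple) and all coding genes (grey). Genes are split by whether a coding neighbor on the other strand starts within 1000 bp and runs apart (filled circles) or not (open squares). Divergent promoters lie above the others in every library, and the open squares of both gene sets nearly coincide in WT replicate 2 and TPdh-/- replicate 1.

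A peak could then belong to either gene of a pair. In WT replicate 1 the strongest promoter peak covered a TSS of the mitoribosomal gene itself in 54 of 64 cases (84.4%, against 79.9% of coding genes), and its midpoint lay within 500 bp of the TSS in 56. It also covered the start of another coding gene in 31 cases (48.4%, against 24.2%), and another gene's start was nearer to the midpoint in 22. When each peak was given to the nearest coding TSS alone, the mitoribosomal share was 56.4% and 20.5% in WT and 16.7%, 20.5% and 24.4% in TPdh-/-, against 36.1% and 20.9%, and 12.8%, 13.9% and 23.5%, of coding genes. For Mrpl34, Mrpl38 and Mrpl41 the peak of WT replicate 1 covered the start of Abhd8, Trim65 and Pnpla7 and not their own. These genes were picked out after their peaks were seen.

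Some sequence motifs were more frequent in mitoribosomal promoters than in coding promoters at large, although each was present in a minority of them. A RefSeq sequence from 250 bases before to 50 after the TSS was found for 69 of the 78 genes and for 16522 coding genes, and each motif was searched on both strands. The ETS motif CCGGAAG was present in 25 mitoribosomal promoters (36.2%), against 12.3% of coding promoters. The NRF1 core CGCANGCG was present in 20 (29.0%, against 11.8%), and the core of the YY1 motif AANATGGCG in 11 (15.9%, against 3.47%). Coding genes with a promoter peak in WT replicate 1 held these motifs in 21.7%, 19.0% and 6.15%. Cytosolic ribosomal promoters held the ETS motif in 39.7%, and respiratory chain promoters held the NRF1 core in 34.3%. The SP motif GGGCGG (49.3% against 48.0%) and the CCAAT box (39.1% against 38.7%) were about as frequent as in coding promoters at large, but coding genes with a peak in WT replicate 1 held the SP motif in 64.7%. The sequence TATAAA was found in 4 (5.80%, against 12.9% of coding promoters and 6.61% of those with a peak in WT replicate 1). The median GC content was 58.3% against 57.0%, and the median ratio of observed to expected CpG was 0.818 against 0.598, or 0.785 for coding genes with a peak in WT replicate 1.

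Within the set, motifs were unevenly spread over the classes of presence. The ETS motif was found in 8 of 16 genes called in all 5 libraries, 8 of 16 called in 2 to 4, 8 of 24 called in WT replicate 1 alone and 1 of 13 called in none. The NRF1 core did not follow that order, with 5 of 16, 5 of 16, 7 of 24 and 3 of 13. The CCAAT box did not follow it either, with 3 of 16, 6 of 16, 14 of 24 and 4 of 13. Coding genes with a promoter peak in WT replicate 1 also held the ETS motif more often than all coding promoters, in 21.7% against 12.3%. Shares of coding promoters by class of presence were not computed, so the spread over classes may not be particular to this set. A match describes the letters of the reference sequence and does not show binding.

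The other parts of mitochondrial translation were also called most, or jointly most, often in WT replicate 1, as were coding genes at large. The share of all coding genes was 42.1% and 24.8% in WT and 15.3%, 16.5% and 27.9% in TPdh-/-. Of 6 mitoribosomal proteins with other symbols, among them Dap3 and Ptcd3, 5 were called in each WT library and 2, 1 and 5 in TPdh-/-. Of 14 translation factors, 13 and 5 were called in WT and 3, 4 and 8 in TPdh-/-. Called in all 5 were Mrrf, the recycling factor, and Slirp, an mRNA stability factor (14.3%, against 10.9% of coding genes). Of 21 assembly factors, 16 and 9 were called in WT and 7, 8 and 8 in TPdh-/-. Of these factors, 6 (28.6%, against 10.9%) were called in all 5 libraries, among them the RNA methyltransferases Nsun4 and Mrm1. Of 17 mitochondrial aminoacyl-tRNA synthetases, 13 and 7 were called in WT and 4, 3 and 9 in TPdh-/-. Of 10 genes for transcription and copying of mitochondrial DNA, 8 and 6 were called in WT and 2, 3 and 7 in TPdh-/-. In each of these lists TPdh-/- replicate 3 had at least as many genes called as the other TPdh-/- libraries. WT replicate 1 had at least as many as WT replicate 2. The same order held for all coding genes and for the lengths of the peak lists.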

How the data were processed

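ChIPseq reads of the 5 libraries were aligned by the authors to GRCm38/mm10, and broad peaks were called for each library with MACS2 2.2.6, per the labels. The deposited lists give each peak's fold enrichment, a ratio on a linear scale, and its −log10 p and −log10 q (neg log10 values). An input control is not given in the sources used here. The integer score column, which the authors' peak caller wrote for display, was not used. The lists hold no read numbers, depth is therefore unknown, and no counting interval is given. The authors' differential analysis was not repeated.

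Peaks were assigned here to genes of GENCODE mouse release 21 with Python 3.11.15, numpy 2.4.6 and pandas 2.3.3. A gene took the fold, width and percentile of its promoter peak with the highest −log10 q, the percentile being that of the peak in its own list, with ties at mid rank. Where 27 symbols stood for more than 1 coding gene, they were counted once. Log2 fold enrichment was centered on each library's median over the 2384 coding genes with a promoter peak in all 5 libraries and tested with limma 3.58.1 in R, with Benjamini-Hochberg adjustment over those genes at 0.05. Steps were tested on simulated data. Promoter sequences were taken from RefSeq.

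Genes were named by rule: up to 12 with no peak, those of both WT and no TPdh-/- library, up to 6 of TPdh-/- without both WT, the 5 strongest and 3 weakest called everywhere, up to 3 in each direction whose groups did not overlap, and 18 by role. Any other gene named was chosen after its values were seen. Some genes of the marker list are not reported here. The members and gene lists were chosen with earlier results of these data known. The alternatives tried were lists of equal length, a minimum −log10 q of 2 or of 5, promoters within 1000 bp, peak midpoints, protein-coding transcripts, the nearest TSS, peaks of at least 1000 bp, no centering, list percentiles, a block by replicate number, and omission of each library in turn. The requirement that a peak covers a TSS, the split by divergent neighbor and the omission of each library over a fixed set of 16 genes were added after the data were seen.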

Additional observations from a re-analysis of the deposited data

How the results depend on the processing

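The difference in the share of mitoribosomal genes called was 26.1 points and ranged from 2.99 without WT replicate 1 to 49.1 without WT replicate 2. Beyond the share of all coding genes it was 12.5 points and ranged from -1.87, a reversed sign, without WT replicate 1 to 26.9 without WT replicate 2. These were the only alternatives that moved either difference by more than the spread between replicates. That spread, a pooled SD of 19.8 and 11.8 points, is itself widened by the gap between the WT libraries, so smaller moves can matter. With lists of equal length the differences fell to 7.91 and 6.0 points. With the nearest TSS they were 17.9 and 6.16 points, and with peaks of at least 1000 bp 17.7 and 6.3 points. The difference in median percentile of the genes called everywhere was 13.9 points, and it was 34.0 with a −log10 q of at least 5, where 1 gene was left, and 2.59 with lists of equal length. It ranged from 5.93 without TPdh-/- replicate 2 to 21.3 without TPdh-/- replicate 3, with the genes called in all remaining libraries. The limma test gave 0 mitoribosomal genes under all 17 alternatives, among them the replicate block. Replicate numbers do not pair the libraries by any label. With the number as a block, the differences were 30.1 points in share, 12.6 points beyond coding genes, 0.13 in median log2 fold and 21.3 points in percentile, and same-numbered libraries deviated with r = -0.109 and 0.0654 over 2384 genes. Without a WT library the remaining one was assumed to vary like the TPdh-/- group. Of 41 genes named, the number of libraries with a peak changed for 23 with a −log10 q of at least 5, for 24 with peaks of at least 1000 bp and for 1 to 13 under the other alternatives. Unknown depth limits any reading of an absent peak.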

Other observations

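A peak inside a mitoribosomal gene and outside all promoter windows was found for Mrpl33 alone. Mrpl33 spans chromosome 5 from 31596935 to 31664384, and its intragenic peak ran from 31602107 to 31603314 in WT replicate 1. Its fold enrichment was 2.21 and 2.32 in WT and 2.26 and 2.33 in TPdh-/- replicates 2 and 3, with no peak in replicate 1. Its promoter peak was called in fewer libraries, with 2.39-fold in WT replicate 1 and 2.67-fold in TPdh-/- replicate 3. What the intragenic peak marks was not tested.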
